A study of Homo sapiens with 8 samples.

Results

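The 4 pyruvate dehydrogenase kinases (PDK1, PDK2, PDK3 and PDK4), the mitophagy receptors BNIP3, BNIP3L and FUNDC1, and the hypoxia-induced mitochondrial protein FAM162A were examined for HIF-1β binding in hypoxic cancer cells. These 8 genes, out of 20098 protein-coding genes on chromosomes 1 to 22 and X, were chosen by name for their part in mitochondrial adaptation to low oxygen. For each gene, peaks were collected that overlapped the gene, from its annotated start to its annotated end on GRCh37 (hg19), or the 25 kb on either side. HIF-1β chromatin immunoprecipitation with sequencing (ChIP-seq) was carried out in PC-3 (prostate cancer), T47D (breast cancer), A549 (lung cancer) and HCT-116 (colorectal cancer) cells, with 2 libraries per line. All 8 libraries came from cells held in 0.5% oxygen for 16 h, no normoxic library was analysed here, and no allele or agent is labelled in any line. The libraries are numbered 1 and 2 in PC-3 and T47D cells and 2 and 3 in A549 and HCT-116 cells, and the labels do not say whether they came from separate cultures, so differences between replicates may be technical. The lists held between 1042 peaks (PC-3 replicate 1) and 3790 peaks (HCT-116 replicate 2), each with an interval and a score but with no reads, so the depth is unknown and the cell type of a line cannot be checked against its markers. Scores began close to 50 in every list, and their scale is not explained, so scores are given as listed and libraries were compared by the order of peaks within each list. A region where peaks of both replicates of a line overlapped by at least 1 bp is called a site.

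Pyruvate dehydrogenase converts pyruvate into acetyl-CoA for oxidation in mitochondria, and the PDK enzymes switch it off by phosphorylation, which diverts pyruvate towards lactate. BNIP3 and BNIP3L (also known as NIX) sit in the outer mitochondrial membrane and hand mitochondria over to autophagy, as does FUNDC1, and all of these are linked with the clearance of mitochondria in hypoxia. HIF-1β pairs with a HIF-α subunit to bind DNA at a short core motif, ACGTG or GCGTG, but it also has partners outside the HIF family, so a HIF-1β peak alone does not name the partner.

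HIF-1β bound PDK1, PDK3, BNIP3, BNIP3L and FAM162A in all 4 lines, whereas PDK2, PDK4 and FUNDC1 had no peak in any library. Of the 8 genes, 5 had a site in PC-3 cells, where 7.10% of all protein-coding genes had one. The same 5 had a site in each other line, against 16.0% of all genes for T47D, 6.03% for A549 and 14.3% for HCT-116. A site in every line was found at 5 of the 8 genes and at 2.47% of all genes, and the 3 genes without a peak in any library compare with 56.4% of all genes. The windows of the members had a median length of 73697 bp, against 77256 bp for all genes. Because the genes were chosen with results of these data known, these shares are given as a description, without a test.

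Sequences around the motif are shown for the starts that were bound, and for the start of PDK2, which holds the motif but had no peak. Each is the GRCh37 reference on the strand of the gene, written 5′ to 3′, with the motif in capitals. The motif was searched as ACGTG and GCGTG on both strands, so it also appears as CACGT or CACGC, and CACGTG holds a copy on each strand and counts as 2. The 150 bases with most copies that lay in the peaks of all 8 libraries and met no exon of the gene were taken. They are chr2:173420465-173420614 (plus strand) for PDK1, chrX:24483211-24483360 (plus strand) for PDK3, chr10:133795474-133795623 (minus strand) for BNIP3 and chr3:122102858-122103007 (plus strand) for FAM162A. For PDK1 a pair of motifs just before the start is shown too, in 30 bases at chr2:173420793-173420822, and for PDK2 the nearest 150 bases upstream of the start that met no untranslated region, chr17:48172499-48172648 (plus strand).
PDK1: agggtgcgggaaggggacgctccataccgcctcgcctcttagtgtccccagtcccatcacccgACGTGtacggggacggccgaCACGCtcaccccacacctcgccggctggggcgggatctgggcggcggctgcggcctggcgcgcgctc
PDK1 start: ctgcccgcCACGTccctCACGTaccactcg
PDK3: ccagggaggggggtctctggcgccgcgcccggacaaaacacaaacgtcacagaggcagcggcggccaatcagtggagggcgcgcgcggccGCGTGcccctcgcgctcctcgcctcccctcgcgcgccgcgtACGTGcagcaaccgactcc
BNIP3: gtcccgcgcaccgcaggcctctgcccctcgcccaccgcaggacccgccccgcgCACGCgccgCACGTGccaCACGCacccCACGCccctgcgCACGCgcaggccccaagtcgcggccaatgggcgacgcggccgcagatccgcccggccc
FAM162A: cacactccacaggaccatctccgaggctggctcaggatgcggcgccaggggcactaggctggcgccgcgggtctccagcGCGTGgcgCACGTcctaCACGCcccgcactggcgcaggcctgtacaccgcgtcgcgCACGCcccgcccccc
PDK2 (no peak): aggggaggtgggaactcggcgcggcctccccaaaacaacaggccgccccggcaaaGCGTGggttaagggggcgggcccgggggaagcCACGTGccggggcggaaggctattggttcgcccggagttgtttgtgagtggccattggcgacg

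The stretch of BNIP3 carries 6 copies of the motif within a single cluster and that of FAM162A carries 4, while those of PDK1 and PDK3 carry 2 each. The PDK2 stretch carries 3 copies, among them a CACGTG, although no library had a peak there.

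At all 5 bound genes a peak lay at the promoter in every library. Of the 50 peaks found in the windows of the 8 genes, 40 had their midpoint within 2 kb of the start of the canonical transcript, 1 per bound gene and library, and 39 of these covered the start itself. The other 10 lay elsewhere, 9 of them downstream in BNIP3L. Among all sites, the midpoint was within 2 kb of a coding start for 34.7% in PC-3 and 53.8% in T47D cells. That share was 24.0% in A549 and 55.9% in HCT-116 cells. Peaks of the 8 libraries at the start of a gene were stacked more closely at PDK3, BNIP3 and PDK1 than at BNIP3L and FAM162A. Positions are given from the start, with negative values upstream. At PDK3 the midpoints spanned 77 bp, from -72 to 5 bp, and at BNIP3 they spanned 129 bp, from -118 to 11 bp. At PDK1 they spanned 199 bp, from -72 to 127 bp. Binding at BNIP3L lay to the downstream side, with midpoints at 279 to 619 bp, a span of 340 bp. Binding at FAM162A lay mostly to the upstream side, with midpoints at -465 to 5 bp, a span of 470 bp. The T47D replicates alone lay 470 bp apart there, where the median gap between replicates over all T47D sites was 82 bp. The lists give no summit, so the place of strongest signal within a peak is unknown.

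**Figure D1:**
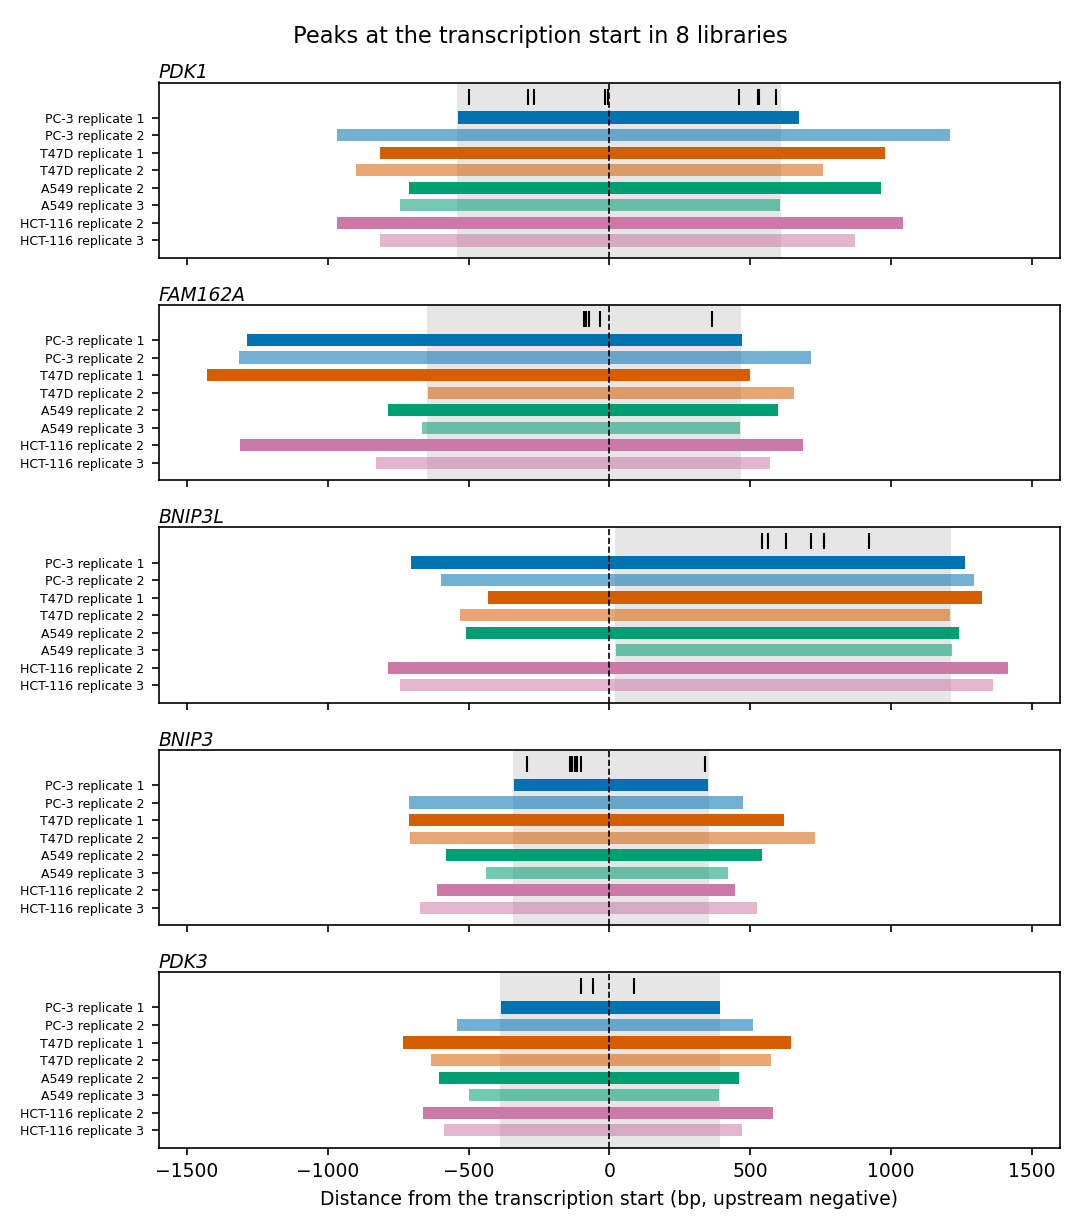
Bars show the peak at the transcription start of each bound gene in each of the 8 libraries, coloured by line, with the distance from the start in bp on the horizontal axis (upstream negative). Grey marks the stretch common to all 8 peaks and black ticks the copies of the HIF core motif in it. The common stretch of BNIP3L begins 23 bp after the start, while those of the other genes cover it.

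The stretch common to all 8 peaks was 1144 bp long at PDK1, 1188 bp at BNIP3L, 1110 bp at FAM162A, 776 bp at PDK3 and 690 bp at BNIP3. At BNIP3 it held 8 copies of the motif, 6 of them with the middle base between -141 and -102 bp. At FAM162A it held 5 copies, of which 4 lay between -90 and -34 bp. The 9 copies at PDK1 were spread from -498 to 593 bp, and a pair stood at -15 and -6 bp. The BNIP3L stretch begins 23 bp after the start, so its 7 copies, at 544 to 921 bp, could only lie inside the gene. The whole sites at the BNIP3L start held 14 to 16 copies. At PDK3 there were 3 copies, at -100, -59 and 87 bp.

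Sites at the starts of PDK1, BNIP3L and BNIP3 were rich in the motif for sites of their line, and those at PDK3 and FAM162A were not. This sets them beside all sites of a line, at promoters or not, and promoter sites alone were not compared. BNIP3 had 9.02 copies per kb in T47D cells and 10.0 in HCT-116 cells, the lowest and highest of the 4 lines, and between 1.86% and 2.38% of all sites of a line held as many per kb. In the BNIP3 sequence printed above the copies form a single cluster. The site at the BNIP3L start held 7.26 to 8.0 copies per kb, reached by 3.40% to 8.14% of sites, whereas a further site downstream of it in PC-3, A549 and HCT-116 cells held 2.06, 2.08 and 2.53, reached by 61.4% to 72.5%. PDK1 held 5.97 to 7.62 copies per kb, reached by 5.77% to 13.8% of sites. FAM162A held 3.36 to 3.61 copies per kb and PDK3 held 2.18 to 2.84, where the median over all sites ran from 2.61 in A549 cells to 3.76 in HCT-116 cells. All sites at these genes held the motif, as did 96.2% to 99.0% of all sites of a line. In the central 200 bp it was found in 2 of 6 sites in PC-3, 2 of 5 in T47D, 3 of 6 in A549 and 4 of 6 in HCT-116 cells, where 73.6%, 64.3%, 71.1% and 73.0% of all sites held it there. The sites of the 4 lines at a gene overlap and share most of their sequence, so these are not separate measurements of it.

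**Figure D2:**
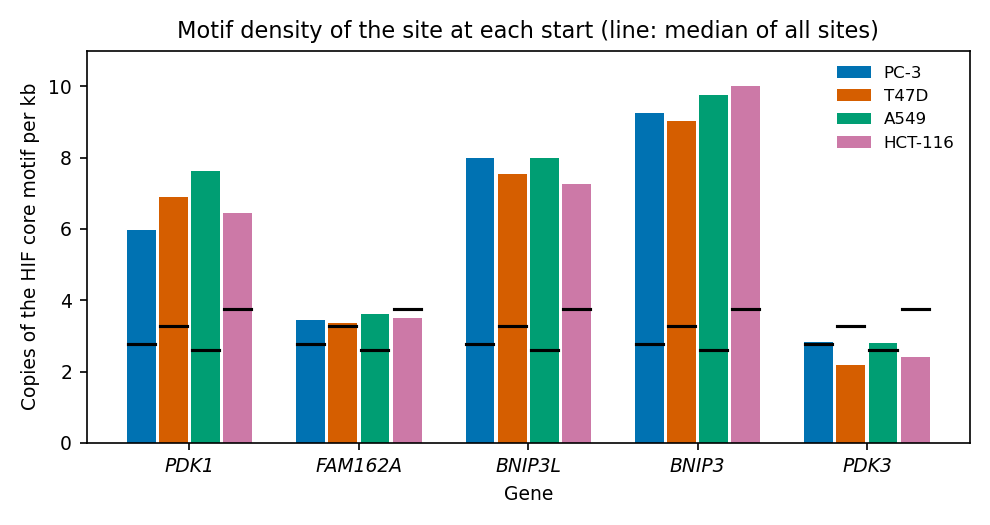
Bars give the number of copies of the HIF core motif per kb in the site at the start of each bound gene, coloured by line, and black lines give the median of all sites of that line. BNIP3 stands at 9.02 to 10.0 copies per kb in the 4 lines, above every median, and PDK3 at 2.18 to 2.84.

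The number of motif copies in the promoter overlapped between bound and unbound genes. In the 1001 bp centred on the start, BNIP3 had 10 copies, BNIP3L 7, PDK1 6, FAM162A 5 and PDK3 3. PDK2 had 4 copies and PDK4 had 3, both without a peak, and FUNDC1 had none. Over all 20098 promoters of that length 86.6% held at least 1 copy and the median was 3. Promoters with at least as many copies as BNIP3 made up 1.42% of them, as BNIP3L 8.14%, as PDK1 13.8% and as FAM162A 22.5%. The share was 35.1% for PDK2 and 51.1% for PDK3 and PDK4. The GC content of these promoters ran from 56.0% in FUNDC1, which had the fewest copies, to 76.0% in BNIP3, which had the most. It was 71.1% in PDK1, 65.7% in BNIP3L, 62.9% in PDK2 and 62.0% in PDK4. The order of copies was followed only in part, as FAM162A had 56.5% with 5 copies and PDK3 68.7% with 3. Whether base composition accounts for the number of copies was not tested.

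PDK1, the kinase most often described as a HIF target, carried one of the strongest HIF-1β peaks of each library. PDK1 lies on chromosome 2 from 173420101 to 173473397 (ENSG00000152256.14), and its canonical transcript starts at 173420818. The PDK1 peak had a score of 1163 in PC-3 replicate 1 and 2564 in replicate 2, where it ranked 10 of 1042 and 9 of 2891 peaks. In T47D cells it scored 2011 in replicate 1 and 2691 in replicate 2, at ranks 13 and 8. In A549 cells it scored 963 in replicate 2 and 1017 in replicate 3, at ranks 41 and 25. In HCT-116 cells it scored 3100 in replicate 2, a value at which 13 peaks of that list were tied and which none exceeded, and 2158 in replicate 3, at rank 7. PDK1 thus stood above at least 97.7% of peaks in every library, and it was the highest of the 5 bound genes in 7 of 8 libraries. No other peak was found in its window, and the closest one outside lay 112182 bp from the gene, near ITGA6, in HCT-116 replicate 2 alone. The site also covers the start of PDK1-AS1, a long non-coding RNA gene on the opposite strand.

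PDK3 carried the weakest site of the 5 genes. It lies on the X chromosome from 24483361 to 24568583, and its canonical transcript starts at 24483403. The PDK3 peak scored 58.5 in PC-3 replicate 1 and 90.0 in replicate 2, close to the lowest score of the list in the former. It scored 304 and 206 in replicates 1 and 2 of T47D cells, 59.0 and 75.9 in replicates 2 and 3 of A549 cells, and 282 and 174 in replicates 2 and 3 of HCT-116 cells. The PDK3 peak was the lowest of the 5 in 7 of 8 libraries, the exception being T47D replicate 1, where BNIP3 was lower. It scored no lower than 83.4% and 91.7% of peaks in the T47D libraries and 75.0% and 86.0% in the HCT-116 libraries, but 18.2% and 51.4% in the PC-3 libraries and 17.3% and 37.5% in the A549 libraries. The values of T47D and HCT-116 cells did not overlap those of PC-3 and A549 cells. Sites with a midpoint within 2 kb of a coding start made up 53.8% and 55.9% of all sites in T47D and HCT-116 cells, and 34.7% and 24.0% in PC-3 and A549 cells, and the part of this in the PDK3 pattern was not tested. When each list was reduced to its higher-scoring 50%, or to its 1042 highest-scoring peaks, PDK3 kept its site in T47D and HCT-116 cells and lost it in the other lines.

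PDK2 and PDK4, the remaining kinases, had no peak within 25 kb in any library. The closest call was at PDK2 on chromosome 17 (48172101 to 48189516), where a peak of HCT-116 replicate 2 lay 29297 bp from the gene. That peak scored 53.0, at rank 3592 of 3790, and HCT-116 replicate 3 had none there. In PC-3 replicate 2 a peak 37682 bp away scored 60.9 and covered the start of ITGA3. In the other 6 libraries the nearest peak to PDK2 was at least 206209 bp away. PDK4, on chromosome 7 from 95212811 to 95225828, lay further still from any peak. The nearest were in A549 cells, 318566 bp away in replicate 2 and 318836 bp in replicate 3, at an A549 site with scores of 840 and 567 and a distance of 59600 bp or more to the closest coding start, that of PON1. In the other lines the nearest peak to PDK4 lay 724942 bp away or further.

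BNIP3 and its paralogue BNIP3L were both bound, and BNIP3L more strongly. BNIP3 lies on chromosome 10 from 133781188 to 133795471 on the minus strand, and its canonical transcript starts at 133795427. Its site in T47D cells also overlapped a long non-coding RNA gene on the opposite strand, but not the start of that gene. The BNIP3 peak scored 105 and 359 in replicates 1 and 2 of PC-3 cells, and 216 and 262 in those of T47D cells. It scored 88.0 and 222 in replicates 2 and 3 of A549 cells, and 373 and 316 in those of HCT-116 cells. Replicates stood apart in PC-3 cells, where the peak scored no lower than 56.5% and 90.9% of peaks, and in A549 cells, at 47.3% and 81.4%. BNIP3 scored no lower than 86.5% to 90.2% of peaks in the 4 libraries of T47D and HCT-116 cells, and in the other lines its values reached from 47.3% to 90.9%, so the lines overlap.

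BNIP3L lies on chromosome 8 from 26240570 to 26363152, and its start is at 26240570. The peak at the BNIP3L start scored 633 and 1391 in replicates 1 and 2 of PC-3 cells, 540 and 335 in those of T47D cells, 339 and 1072 in replicates 2 and 3 of A549 cells, and 1582 and 1161 in those of HCT-116 cells. It scored above that of BNIP3 in all 8 libraries and above that of PDK1 in A549 replicate 3 alone. In that library the peak ran from 26240593 to 26241786 and began after the start, while the other 7 peaks covered it. In A549 cells it ranked 211 of 1768 peaks in replicate 2 and 22 of 1270 in replicate 3. The site at the BNIP3L start also covers the start of SDAD1P1, a transcribed pseudogene on the opposite strand.

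BNIP3L was the only one of the 8 genes with a further site in its window. All 8 libraries had a peak more than 65 kb downstream of the start, and 7 of them shared an 885 bp stretch from 26308450 to 26309334, with 2 copies of the motif. Both replicates overlapped there in PC-3 cells (scores 55.6 and 315), A549 cells (227 and 149) and HCT-116 cells (348 and 302). In T47D cells the peak of replicate 1 (26305735 to 26307725, score 141) ended 561 bp before that of replicate 2 (26308287 to 26309557, score 156), so no site was counted. The peak of HCT-116 replicate 2, 3836 bp wide, spanned both places. The peak at the start scored above the downstream one in all 8 libraries. The stretch lies beyond the end of the canonical transcript at 26270643 and within the longer annotated gene, in no exon, with the nearest coding start, that of PNMA2, 61656 bp from the region. With the window drawn around the canonical transcript, the downstream region falls outside it. A further peak of A549 replicate 2 alone, at 26314502 to 26315834, scored 71.2.

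**Figure D3:**
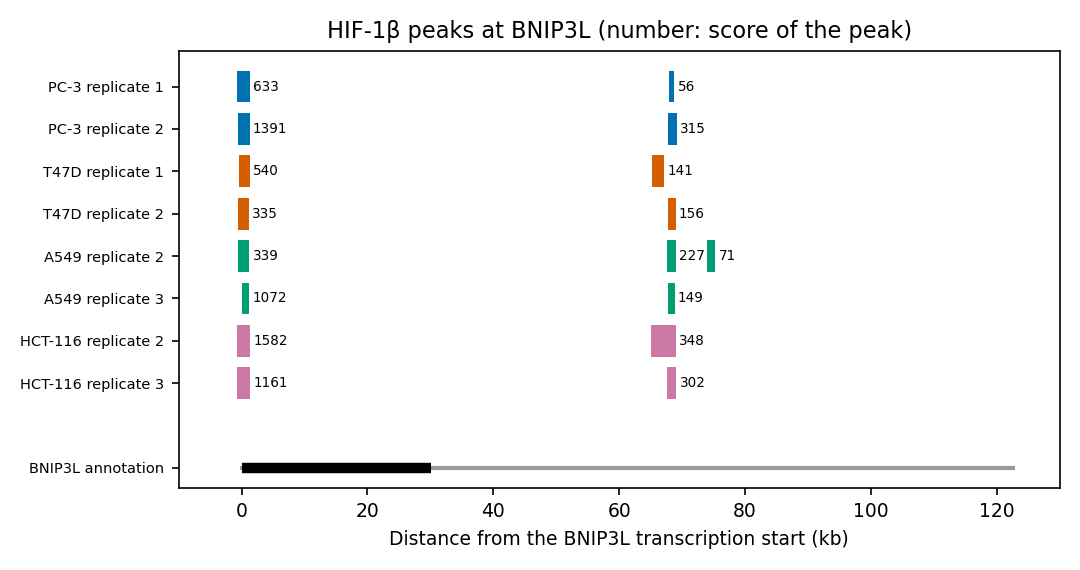
Peaks of the 8 libraries along BNIP3L, with the distance from the transcription start in kb on the horizontal axis and the score printed beside each peak. In the bottom row black is the canonical transcript and grey the longer annotated gene. Each library has a peak at the start and at least 1 more beyond 65 kb, and those of T47D cells do not overlap each other.

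FUNDC1, the third mitophagy receptor, stood apart from both BNIP genes. It lies on the X chromosome from 44382885 to 44402105, and the nearest peak of any library lay 329601 bp from it. That peak, of T47D replicate 1 alone, covered the start of KDM6A. In the remaining libraries the nearest peak lay between 972639 and 4640323 bp away.

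FAM162A, a mitochondrial protein induced by hypoxia and linked to cell death, had its site close to the start of a neighbour. It lies on chromosome 3 from 122103008 to 122131181, its canonical transcript starts at 122103029, and the start of MIX23, at 122102078, was covered by the same peak in 4 of 8 libraries, among them neither of A549 cells. The FAM162A peak scored 488 and 1304 in replicates 1 and 2 of PC-3 cells, 952 and 1255 in those of T47D cells, 368 and 377 in replicates 2 and 3 of A549 cells, and 2269 and 1356 in those of HCT-116 cells. It ranked between 27 and 65 in the lists of PC-3, T47D and HCT-116 cells, and at 186 and 118 in A549 cells. In A549 cells it scored no lower than 89.5% and 90.8% of peaks, below the 93.9% to 99.2% of the other 6 libraries. A second peak, of PC-3 replicate 2 alone, at 122134219 to 122135544, scored 88.6 and covered the start of WDR5B.

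Within a library the 5 bound genes kept nearly the same order. PDK1, FAM162A and BNIP3L scored above BNIP3 and PDK3 in all 8 libraries. FAM162A scored above BNIP3L in 5 libraries and below it in 3, among them both of PC-3 cells, so that order was not stable. Of the 40 strongest peaks, 1 per bound gene and library, 25 were among the top 10% of their list, made up of 8 for PDK1, 7 each for FAM162A and BNIP3L, 2 for BNIP3 and 1 for PDK3. The median of the 5 genes lay at 88.1% to 98.5% of peaks scoring no higher, and that of all genes with a site in the line at 54.9% to 82.4%. The 5 genes had a site in every line, whereas the latter genes were counted whether or not they had a site in the other lines. Genes with a site in every line were not compared separately, and the top 10% was not counted for other genes. The contrast may therefore reflect how the genes were selected, and no conclusion is drawn from it.

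**Figure D4:**
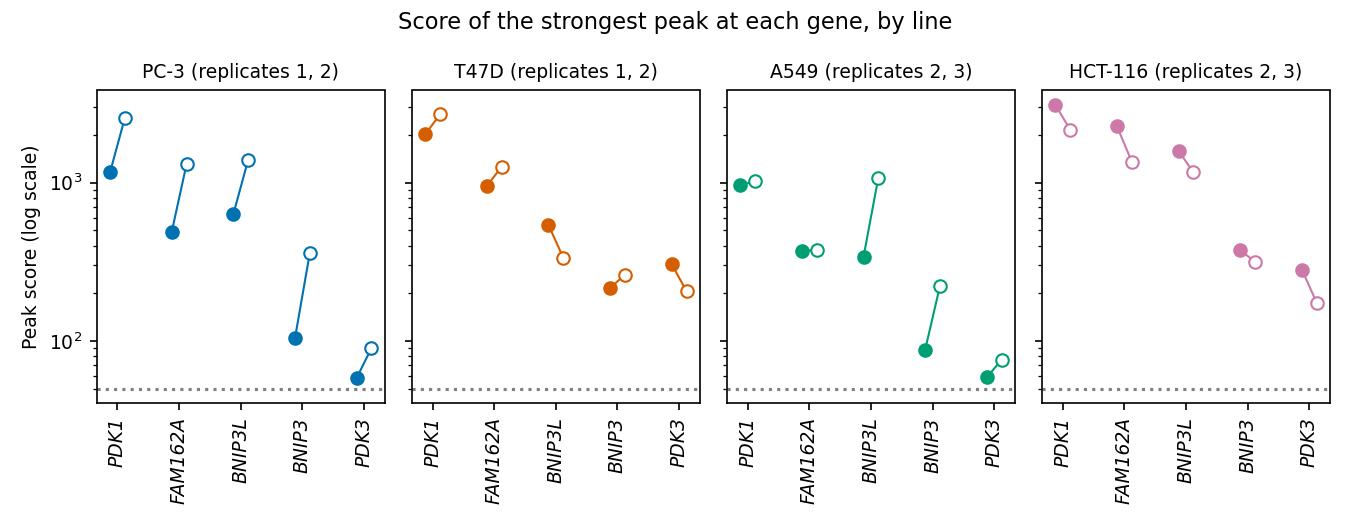
The score of the strongest peak at each bound gene is plotted on a log axis for each line, with a filled circle for the lower-numbered replicate and an open circle for the other, joined by a line. The dotted line is a score of 50, where every list begins. PDK1, FAM162A and BNIP3L stand above BNIP3 and PDK3 in each library.

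Whether lines differed at a gene by more than their replicates was tested on the percentage of peaks in the library that scored no higher than its strongest peak. The labelled pairs were set against each of the 105 possible pairings of the 8 libraries (exact permutation test, one-sided, smallest possible p = 0.0095, Benjamini-Hochberg adjustment over the 5 genes tested). No gene passed. FAM162A came nearest, with a mean difference of 1.65 percentage points within lines and 4.78 between lines (exact permutation test, p = 0.029, adjusted p = 0.14). PDK3 differed most in size, by 18.2 points within lines and 39.5 between lines (exact permutation test, p = 0.086, adjusted p = 0.21). PDK1 differed by 0.356 points within lines and 1.02 between lines (exact permutation test, adjusted p = 0.24). For BNIP3 and BNIP3L the differences within lines, 17.9 and 4.66 points, were as large as those between lines, 17.7 and 4.26 points (exact permutation test, adjusted p = 0.39 and 0.77). With 2 libraries per line these values do not show that the lines bind alike.

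**Figure D5:**
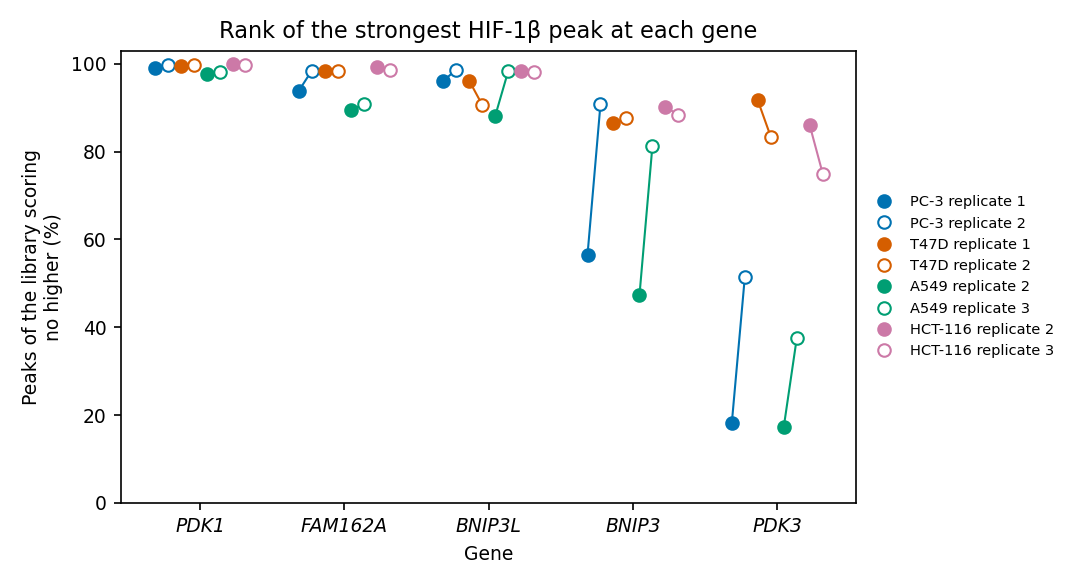
Circles show, for each bound gene and library, the percentage of peaks of that library that scored no higher than the strongest peak of the gene, with replicates of a line joined. PDK1 lies between 97.7% and 100.0% throughout, while PDK3 reaches from 17.3% in A549 replicate 2 to 91.7% in T47D replicate 1.

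Replicates overlapped at nearly every peak at these genes, although their scores differed by a factor of up to 3.44 (BNIP3 in PC-3 cells). Of the 50 peaks, 46 (92.0%) overlapped a peak of the other replicate, as both sides of 23 sites, and the 4 that did not were the T47D pair downstream of BNIP3L, the A549 peak beyond it and the PC-3 peak at WDR5B. Over whole lists the share ran from 33.6% in PC-3 replicate 2 to 93.1% in PC-3 replicate 1, and it was 92.1% in HCT-116 replicate 3. Peaks of like score were not compared, so no conclusion is drawn from the contrast. At each of the 5 starts the sites of all 4 lines formed a single region. Of the 6 regions at these genes 5 were held by all 4 lines, as were 6.04% of the 3840 regions of the series, and the region downstream of BNIP3L was held by 3.

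Related genes were counted in the same way. Of 12 genes of the pyruvate dehydrogenase complex, its phosphatases, and pyruvate and lactate handling, 2 had a site in PC-3 and in A549 cells and 4 had one in T47D and in HCT-116 cells, beside the shares of all genes given above. Those bound in all 4 lines were LDHA, which makes lactate from pyruvate, and SLC16A3, which exports it. They scored no lower than 97.3% to 100.0% and 97.6% to 99.5% of peaks in the 8 libraries, beside 97.7% to 100.0% for PDK1. Among the other 10, PDHX, a subunit of the complex, had a site in T47D cells, the phosphatase PDP1 in HCT-116 cells, and PDPR, which regulates the phosphatase, in both of these lines. The subunits PDHA1, PDHB, DLAT and DLD, the phosphatase PDP2 and the pyruvate carriers MPC1 and MPC2 had none in any line. Of 26 other mitophagy genes, 3 had a site in PC-3 and in A549 cells, 5 in T47D and 6 in HCT-116 cells, and 18 had none in any line, PINK1, OPTN and SQSTM1 among them, where 75.5% of all protein-coding genes had none. VDAC1, a channel of the outer mitochondrial membrane, was the only one bound in all 4 lines, at 59.4% to 95.4% of peaks scoring no higher. Of 5 mitochondrial genes described as HIF targets, LONP1, a protease of the matrix, and HK2, a hexokinase that attaches to mitochondria, had a site in all 4 lines, and NDUFA4L2, COX4I2 and HIGD1A had none. Over all protein-coding genes 2.47% had a site in all 4 lines. The lists were chosen with results of these data known, so their counts are a description only.

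Other genes followed similar profiles over the 8 libraries, measured as the mean absolute difference in the percentage of peaks scoring no higher. For PDK1 the nearest were PGAM1 and its neighbour EXOSC1, which had the same values, at 0.356 points. FAM162A was nearest to RLF at 1.05 points and ARID3B at 1.07, and BNIP3L to GBE1 at 2.15 and FBXO16 at 2.24. BNIP3 was nearest to CAPRIN1 and NAT10, both at 4.84 points, and PDK3 to MAFF and PLA2G6, both at 6.74. Whether the windows of such a pair hold the same peak was not checked, so genes at equal distances are not counted as separate likenesses. Genes with strong peaks in every library lie close together on this measure, so a small distance is a description only.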

How the data were processed

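HIF-1β ChIP-seq peaks were analysed in 8 libraries of 4 cell lines. The deposited lists hold a score for each peak, as the authors' peak calling gave it for that library, in GRCh37 (hg19) coordinates. The scale of the score is not explained, and libraries were compared by the order of scores. The submitters' processing notes also name Trim Galore 0.3.3, BWA 0.7.5a-r405, SAMtools 0.1.19, bedtools 2.17.0, Picard 1.106 and the peak caller MACS, and the methods kept peaks that T-PIC, another peak caller, found too and that recurred between datasets. Whether the deposited lists had passed either step is not stated, though many of their peaks overlap none of the other replicate. Groups are the labelled cell lines. Genes, canonical starts and gene ends came from GENCODE release 44 lifted to GRCh37. The analysis used Python 3.11.15, NumPy 2.4.6, SciPy 1.17.1, pysam 0.24.0, Matplotlib 3.10.9, samtools 1.23.1 and bedtools 2.31.1, and the overlap counts and the permutation test were tested on simulated data. The 8 genes and the lists of related genes were chosen with earlier results of these data known. Named besides the 8 genes were genes of the lists with a site in all 4 lines, coding starts nearest to a peak, and the 2 genes most like each bound gene. Other list genes, PDK1-AS1, SDAD1P1 and genes near peaks outside the windows were named after their values were seen. Alternatives were other windows, overlaps and lists, replicates left out and the replicate number as a block. Sequence at BNIP3L is not shown here. The values of 1 list gene are not reported here.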

Additional observations from a re-analysis of the deposited data

How the results depend on the processing

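The count of 5 bound genes per line was the same with a window of 50 kb and with an overlap of 50% of both peaks. It was also 5 with a window of 10 kb, with 25 kb around the transcription start, with a peak of either replicate, and with each replicate left out. These last settings could return no other count. The 5 genes had a peak at the promoter in every library, and the other 3 had none in their windows. With the higher-scoring 50% of each list the count of bound genes fell to 4 in PC-3 cells, where PDK3 was lost. It fell to 3 in A549 cells, where BNIP3 and PDK3 were lost, and the count for all 4 lines fell to 3. Lists cut to the 1042 highest-scoring peaks and a window around the canonical transcript were added after seeing the data, and the former left 4 genes bound in all 4 lines. In the central 200 bp of a site the motif was found in 2 of 6 sites in PC-3 cells, 2 of 5 in T47D cells and 3 of 6 in A549 cells, against every site over its whole width. With a peak of either replicate, the pyruvate and lactate list reached 4 genes in PC-3 and 8 in HCT-116 cells, and the other mitophagy genes 7 in PC-3, 12 in T47D, 5 in A549 and 10 in HCT-116 cells. That rule accepts more peaks, and under it 17.6% of all genes were bound in PC-3, 27.3% in T47D, 10.3% in A549 and 29.2% in HCT-116 cells. Adjusted p-values of the line difference (exact permutation test) stayed above 0.05 under every alternative, at 0.071 to 0.46 for PDK1, 0.071 to 0.28 for FAM162A, 0.14 to 0.33 for PDK3, 0.39 to 1.0 for BNIP3 and 0.46 to 0.92 for BNIP3L. That test was not run with a replicate left out, since it needs pairs. PC-3 and T47D cells share replicate numbers 1 and 2, and A549 and HCT-116 cells 2 and 3. Differences between replicates correlated at -0.04 over 946 genes in the former and 0.15 over 808 genes in the latter. Only genes with a site in both lines entered, and other lines that share number 2 were not compared. Whether equal numbers mark a shared batch is therefore not known. With the replicate number as a block, added after seeing the data, no gene passed (exact permutation test over 96 exchanges, adjusted p = 0.28 for PDK1, PDK3 and FAM162A, 0.57 for BNIP3 and 0.92 for BNIP3L). Exchanging whole lines that share both numbers leaves the statistic unchanged, so very small p-values are out of reach. After adjustment this test could hardly pass any gene, and no conclusion is drawn from it.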
